A study of Mus musculus with 6 samples.

Results

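RNA levels were compared between upper first molars of mice that carry a mutation in 1 allele of Ascl5 (Ascl5Mut/WT) and of wild-type mice (Ascl5WT/WT), both at postnatal day 1. The comparison used 4 of the series' 6 libraries, 2 of each genotype, and all genes of the table deposited for these genotypes. The other 2 libraries, from mice with the mutation in both alleles (Ascl5Mut/Mut), are given beside the results where they bear on a gene. The question was how a single mutant allele changes gene expression in the newborn molar. The labels name the genotypes, the tissue, the age and 1 sequencing batch. They do not describe the base change, the strain, the number of animals or teeth in a sample, or whether the wild-type mice were littermates. The labels also do not state that the libraries of a genotype came from separate animals. A Y-linked gene, given below, was read in replicate 1 of each genotype and not in replicate 2. The replicates of a genotype therefore did not come from the same animal. The p-values below measure the spread between these samples only, and that spread includes sex.

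Ascl5, also called AmeloD, is a transcription factor of the dental epithelium with a basic helix-loop-helix domain. Factors of this family pair with ubiquitous E proteins such as Tcf4 and Tcf12 and bind short DNA motifs called E-boxes. In the newborn molar the epithelium faces the dental papilla across a basement membrane. Papilla cells at that border become odontoblasts, which lay down dentin, and the epithelial cells opposite become ameloblasts, which lay down enamel. The dental follicle around the tooth germ gives rise to the periodontal ligament and bone, and oral mucosa lies above it.

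The values are normalized counts, a scale on which 1 read was worth about 110 to 137 depending on the library. Each library held an estimated 95602 to 117386 counted reads. That is shallow: 66.6% to 68.6% of the 24972 genes were listed at 0 in each library, and 12328 genes were at 0 in all 4. Between 6 and 12 of 79 cytosolic ribosomal protein genes, which every cell uses, were also at 0, so a 0 does not show that a gene was silent. A level of 0 allows up to 3 reads, or 331.2 to 410.4 normalized counts. The libraries also differed in ways the genotypes do not set. Replicate 1 of each genotype had reads of the Y-linked gene Eif2s3y (785 in Ascl5WT/WT and 1250 in Ascl5Mut/WT), and replicate 2 of each had none, so sex was balanced between the genotypes. Summed over 31 skeletal muscle genes, the level was 10646 and 47657 in Ascl5WT/WT replicates 1 and 2 and 83798 and 23641 in Ascl5Mut/WT replicates 1 and 2. Red cell genes summed to 24616 in Ascl5WT/WT replicate 2 and to 1390 to 3705 in the other libraries.

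Ascl5 itself (chromosome 1, 136050804 to 136051370, GRCm38) had 0 normalized counts in every one of the 4 libraries, so the labels could not be checked on the mutated gene and its level could not be compared. Its partners Tcf4 and Tcf12 were measured. Tcf4 stood at 1101 and 1146 in Ascl5WT/WT and 1767 and 1619 in Ascl5Mut/WT, and Tcf12 at 1692 and 647 against 768 and 1537. Neither was called (limma adjusted p = 0.835 and 0.994). The defining markers of secretory ameloblasts were at or near 0. Amelx, the main enamel matrix protein, had 127 normalized counts in Ascl5Mut/WT replicate 1 and 0 in the other libraries. Enam had 113 and 0 in Ascl5WT/WT against 252 and 809 in Ascl5Mut/WT, and Ambn had 0 and 0 against 383 and 136. None of 17 enamel matrix and ameloblast genes reached the mean level needed for a test, so enamel genes were too low here to compare at this depth.

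Of 2370 genes with a mean of at least 1000, 13 (0.549%) differed between the genotypes. The test was limma with an intensity trend, two-sided, on log2(normalized count + 120), and a gene was called at a Benjamini-Hochberg adjusted p under 0.05. Of these, 8 (0.338% of genes tested) were higher in Ascl5Mut/WT and 5 (0.211%) were lower. Higher were the mucosal keratins Krt4 and Krt13, the dentin matrix gene Dspp, Igfbp5, Perm1, Mas1 and the poorly characterized genes 5031410I06Rik and Gm10389. Lower were Dlx1, Gpr39, Tdrd1, Afap1l2 and Wdr76. Differences below are Ascl5Mut/WT minus Ascl5WT/WT on the log2(normalized count + 120) scale, which understates the change of low genes. The median difference over all genes tested was 0.04, with 1235 genes above 0 and 1135 below, and the authors' normalization itself centres the typical gene near 0. All positions are on GRCm38.

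**Figure D1:**
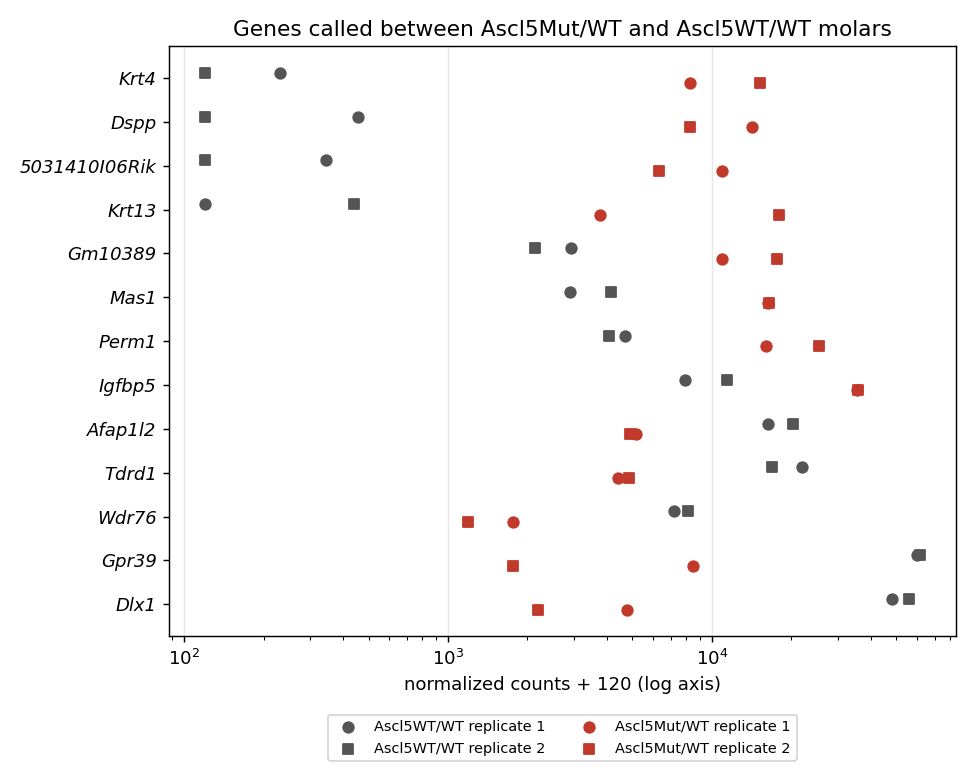
Normalized counts + 120 (log axis) of the 13 called genes in each library, with Ascl5WT/WT in grey, Ascl5Mut/WT in red, circles for replicate 1 and squares for replicate 2. The genotypes do not overlap for any of the 13 genes, and Krt4, Dspp, 5031410I06Rik and Krt13 lie at 0 to 336 normalized counts in Ascl5WT/WT.

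**Figure D2:**
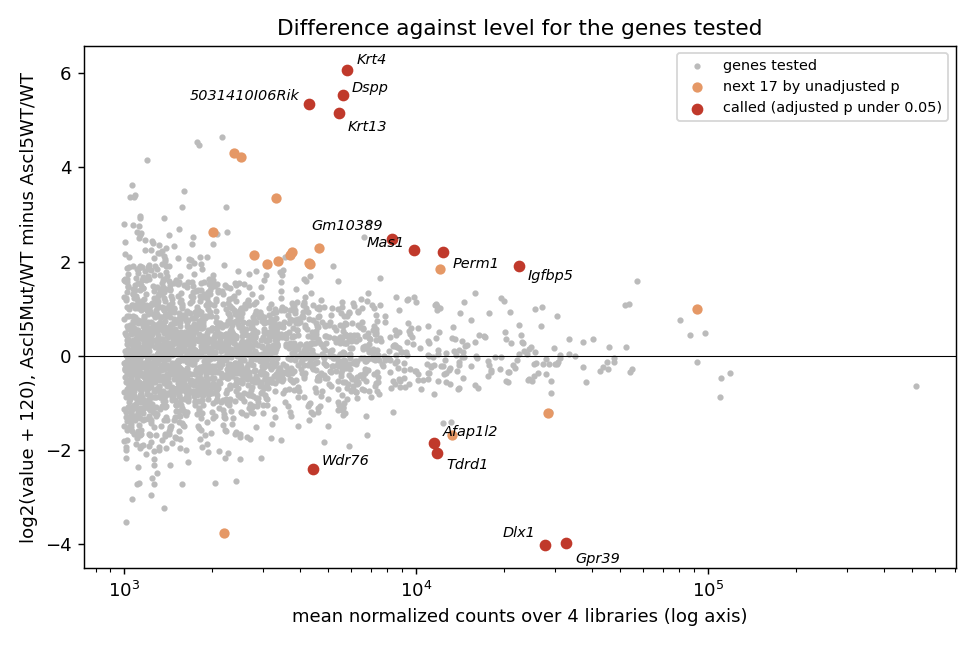
Difference in log2(normalized count + 120), Ascl5Mut/WT minus Ascl5WT/WT, against the mean normalized count over 4 libraries (log axis) for the 2370 genes tested. The 13 called genes are red and labelled, and the next 17 genes by unadjusted p are orange.

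The calls rest on few libraries. At an unadjusted p under 0.05 there were 207 genes. With 2 libraries a side, the smallest two-sided p that exact permutation allows is 0.33. limma called 0 genes without Ascl5Mut/WT replicate 1 (113 at an unadjusted p under 0.05), 0 without Ascl5Mut/WT replicate 2 (127) and 0 without the intensity trend (190). At a pseudocount of 1, much smaller than a read, the calls of Krt4, Dspp, 5031410I06Rik, Krt13 and Wdr76 were lost (limma adjusted p = 0.0694 to 0.339).

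E-boxes have the letters CANNTG and read the same on either strand. They were searched in the 250 bases before the start of the called genes in RefSeq (GRCm38.p6), and the windows printed here are those that end at the annotated gene start and overlap no annotated exon. Of the 13 called genes, 11 had an entry, and 9 of the 11 held at least 1 such motif. Of all 32851 entries, 66.2% did. The form CAGCTG was found in 2 of the 11, Krt13 and Wdr76, against 13.0% of all entries. These matches are letters only and show no binding. Shown 5′ to 3′ on the gene's strand with E-boxes in capitals are a mucosal keratin that rose (chr11:100121567-100121816, minus strand), a receptor gene that rose (chr17:12868144-12868393, minus strand) and a gene that fell (chr19:56825959-56826208, plus strand).
Krt13: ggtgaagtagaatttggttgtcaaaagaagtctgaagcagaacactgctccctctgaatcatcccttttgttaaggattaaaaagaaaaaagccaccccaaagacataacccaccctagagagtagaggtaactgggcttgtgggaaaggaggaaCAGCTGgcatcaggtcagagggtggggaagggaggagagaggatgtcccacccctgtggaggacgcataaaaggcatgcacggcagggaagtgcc
Mas1: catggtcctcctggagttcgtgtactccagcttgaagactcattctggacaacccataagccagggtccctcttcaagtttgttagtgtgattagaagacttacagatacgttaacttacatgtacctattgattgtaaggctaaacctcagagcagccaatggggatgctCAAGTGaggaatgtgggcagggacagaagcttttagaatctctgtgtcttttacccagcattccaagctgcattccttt
Tdrd1: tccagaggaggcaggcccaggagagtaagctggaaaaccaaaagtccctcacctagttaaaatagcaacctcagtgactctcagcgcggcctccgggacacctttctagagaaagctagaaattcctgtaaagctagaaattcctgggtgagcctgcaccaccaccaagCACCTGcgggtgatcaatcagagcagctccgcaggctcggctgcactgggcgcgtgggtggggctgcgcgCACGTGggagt
The E-box letters begin 95 bases before the start of Krt13 (CAGCTG), 79 before that of Mas1 (CAAGTG), and 81 and 11 before that of Tdrd1 (CACCTG and CACGTG). Genes that rose and a gene that fell held the motif.

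Keratins of stratified mucosa rose. Krt4 and Krt13 encode the keratin pair of the upper layers of oral and oesophageal mucosa. Krt4 (chromosome 15, 101918535 to 101924735) had 111 and 0 normalized counts in Ascl5WT/WT and 8146 and 15031 in Ascl5Mut/WT. Both Ascl5Mut/WT libraries lay far above both Ascl5WT/WT libraries, which held 1 read between them (difference 6.07 ± 0.79 SE, limma adjusted p = 0.000261). Krt13 (chromosome 11, 100117327 to 100121566) had 0 and 319 against 3636 and 17812, a difference of 5.16 ± 0.90 SE (limma adjusted p = 0.0062). Again the genotypes did not overlap, and the Ascl5Mut/WT libraries differed several-fold from each other, replicate 2 being the higher.

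Other genes of keratinizing epithelium were low in Ascl5WT/WT and were not called. Of 31 listed genes in the table, Krt4 and Krt13 included, 11 were at 0 in all 4 libraries. The 6 that passed the minimum mean also include Krt4 and Krt13. All 6 had both Ascl5Mut/WT libraries above both Ascl5WT/WT libraries, as had 21.1% of all genes tested, and their median difference was 3.95. A member that passed only through its level in Ascl5Mut/WT was bound to have the higher mean there. Rptn, a cornified envelope protein, had 0 and 0 against 1144 and 5991, at least 10.1-fold higher than a floor of 3 reads per library (limma adjusted p = 0.594). Krt6a, a keratin of mucosa and wounded skin, had 112 and 243 against 1009 and 4125 (limma adjusted p = 0.587). Krt1, a keratin of cornifying layers, had 553 and 123 against 1015 and 3585 (limma adjusted p = 0.594). In each of these genes Ascl5Mut/WT replicate 2 was the highest library. Among the markers under the minimum mean, Krt76 had 1230 in Ascl5Mut/WT replicate 2 and 0 elsewhere, while Krt84, Sprr1a, Ivl and Krt2 were at 0 in all 4 libraries. Summed over the list, with Krt4 and Krt13, the level was 3408 and 3210 in Ascl5WT/WT and 16797 and 58906 in Ascl5Mut/WT. The markers are those of oral mucosa as well as of keratinizing cells in general, and the part of mucosa taken with the tooth was not tested. In such whole-tissue libraries, more cells of a type and more RNA per cell cannot be told apart.

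Epithelial genes shared by the dental epithelium did not follow that pattern. Of 24 listed genes, 9 were tested and none was called, with 5 above 0, 4 below and a median of 0.38 that was 1.05 without Ascl5Mut/WT replicate 1, -0.23 without Ascl5Mut/WT replicate 2, -0.02 without Ascl5WT/WT replicate 1 and 0.20 without Ascl5WT/WT replicate 2. Krt14, a basal keratin, had 16181 and 14852 in Ascl5WT/WT against 13174 and 36780 in Ascl5Mut/WT. Its genotypes overlapped, and only Ascl5Mut/WT replicate 2 stood apart (difference 0.50, limma adjusted p = 0.722). Dsp, the desmosomal linker, had 14822 and 10947 against 8383 and 34574, again with replicate 2 the highest. Krt15, a basal keratin, had 0 and 0 in Ascl5WT/WT and 997 and 6253 in Ascl5Mut/WT, at least 10.3-fold higher than the floor (limma adjusted p = 0.594). Krt5, the partner of Krt14, had 2337 and 1825 against 126 and 1685, which is lower in both (limma adjusted p = 0.594). Trp63, the transcription factor that maintains stratified epithelium, had 20373 and 13565 against 6836 and 15167 (limma adjusted p = 0.601). Genes of the basal layer thus stood higher or lower depending on the gene, and none of them passed the test.

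Among genes of odontoblasts and dentin, Dspp rose. Dspp (chromosome 5, 104170712 to 104180127) encodes dentin sialophosphoprotein, the main non-collagen protein of dentin, made by odontoblasts and briefly by young ameloblasts. It had 336 and 0 normalized counts in Ascl5WT/WT and 14045 and 8122 in Ascl5Mut/WT. The level in Ascl5WT/WT was at most about 3 reads, and both Ascl5Mut/WT libraries were high (difference 5.53 ± 0.76 SE, limma adjusted p = 0.000399). Of 20 odontoblast and dentin genes, 7 were tested. Dspp was the only call among them, 6 stood above 0 and 4 did not overlap between genotypes, all higher in Ascl5Mut/WT, as did 21.1% of all genes tested. The median was 1.05. Leaving out Ascl5WT/WT replicate 2 gave 1.76, and leaving out Ascl5Mut/WT replicate 2 gave 1.83. Dspp and Spp1 passed the minimum mean mainly through their levels in Ascl5Mut/WT. Dmp1, a second dentin matrix phosphoprotein, stayed under the minimum mean with 0 and 0 against 378 and 413, about 3 reads in each Ascl5Mut/WT library.

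Genes that odontoblasts share with bone cells stood higher on average and were not called. Col1a1, a chain of type I collagen, had 12110 and 23827 against 45405 and 27288 (difference 1.05, limma adjusted p = 0.311). Ibsp, bone sialoprotein, had 336 and 5722 against 14841 and 5745 (2.52, limma adjusted p = 0.252). In Ibsp the lower Ascl5Mut/WT library and the higher Ascl5WT/WT library were nearly equal. Spp1, osteopontin, had 0 and 900 against 6728 and 1322 (3.17, limma adjusted p = 0.369). Col1a2, the other chain of type I collagen, had 8547 and 25314 against 52618 and 16265, so its genotypes overlapped. Ctsk, cathepsin K of bone-resorbing cells, had 111 and 126 against 4831 and 1338, and Mmp9, another protease of these cells, had 110 and 0 against 2496 and 694. Of 16 osteoclast genes only Ctsk passed the minimum mean (difference 3.49, limma adjusted p = 0.461), and Calcr and Ocstamp were at 0 in all 4 libraries.

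Ascl5Mut/WT replicate 1 was the highest library for Col1a1, Col1a2, Ibsp, Spp1 and Ctsk. The same library had the highest skeletal muscle sum, and Col1a2 ordered the 4 libraries as the muscle sum did. For example Myh8, a myosin of newborn muscle, had 111 and 5930 in Ascl5WT/WT against 17714 and 3855 in Ascl5Mut/WT. None of the 9 muscle genes tested was called or separated the genotypes, though 8 stood above 0 and the median was 0.91. The median was -0.15 without Ascl5WT/WT replicate 1 and -0.03 without Ascl5Mut/WT replicate 1. Without replicate 2 of Ascl5WT/WT it was 1.59, and without replicate 2 of Ascl5Mut/WT it was 1.77. Muscle genes are not made by teeth, and the part of neighbouring muscle and bone in the bone and collagen values was not tested.

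**Figure D3:**
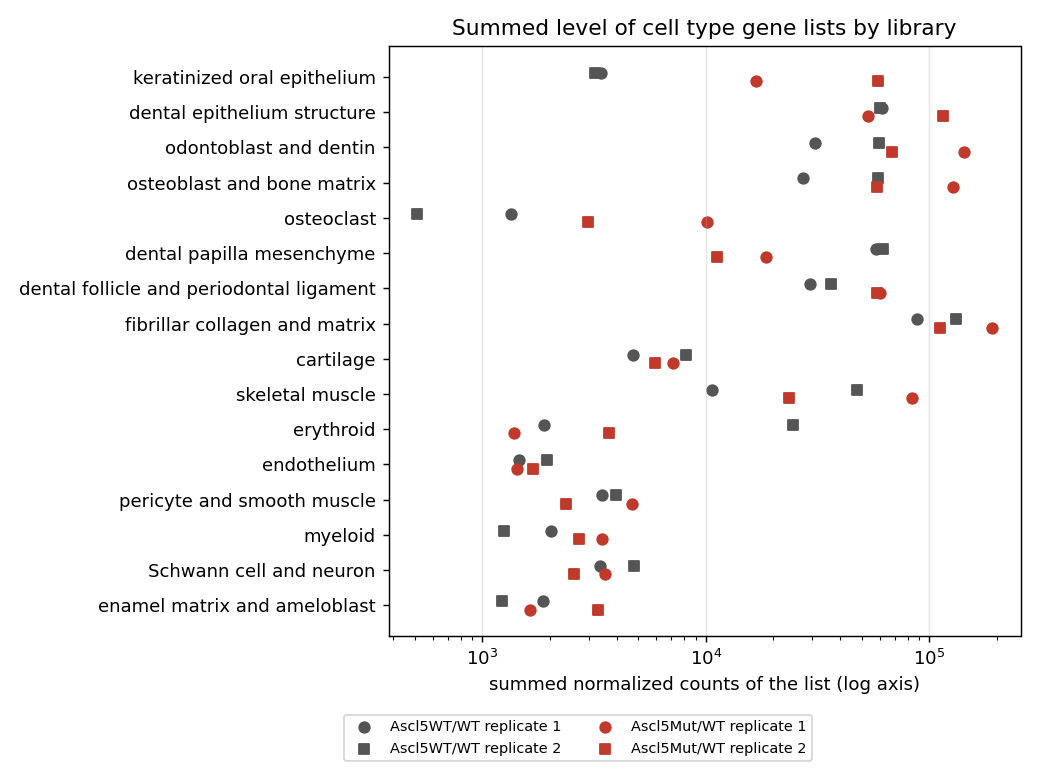
Summed normalized counts (log axis) of 16 gene lists for cell types in each library, with Ascl5WT/WT in grey, Ascl5Mut/WT in red, circles for replicate 1 and squares for replicate 2. The sums of keratinized oral epithelium, odontoblast and dentin, osteoclast, dental follicle and myeloid genes are higher in both Ascl5Mut/WT libraries. Those of dental follicle genes are higher mostly through Igfbp5. The keratinized sums include the called Krt4 and Krt13, and the odontoblast and dentin sums include the called Dspp. Sums of dental papilla genes are lower, mostly through Dlx1, and those of skeletal muscle genes overlap.

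Among mesenchymal regulators, Dlx1 fell. Dlx1 is a homeobox gene of the jaw and dental mesenchyme that together with Dlx2 patterns upper molars. It had 48116 and 55586 normalized counts in Ascl5WT/WT and 4658 and 2064 in Ascl5Mut/WT. Both Ascl5WT/WT libraries were more than 10 times as high as either Ascl5Mut/WT library (difference -4.00 ± 0.40 SE, limma adjusted p = 1.41e-05), the smallest adjusted p of the comparison. Dlx1 (chromosome 2, 71528113 to 71533981, plus strand) shares 335 exon bases with the antisense gene Dlx1as. Of the exon bases of Dlx1, 5396 lie inside the body of Dlx1as. Dlx1as had 28308 and 11090 against 5177 and 8403, also lower in both Ascl5Mut/WT libraries but not called (difference -1.41, limma adjusted p = 0.252). The strand setting used for counting is not given in the sources used here, so reads in any of these bases may belong to either gene.

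In Ascl5WT/WT most of the summed level of the dental papilla list, 57960 and 62021, came from Dlx1. Of 28 genes, 5 were tested, and the other tested members were Sdc1, Fgf10, Alx4 and Msx2, none of them called. Sdc1, a heparan sulfate proteoglycan of condensing mesenchyme, had 780 and 976 against 2018 and 2092 (limma adjusted p = 0.637). Msx1, a papilla homeobox gene, had 664 in Ascl5WT/WT replicate 1 and 0 elsewhere, and Pax9 was at 0 in all 4, so these markers were too low to compare. The list's median was -0.29, and without Ascl5WT/WT replicate 1 it was 0.22. Beyond Dlx1 the list showed no common direction.

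Gpr39 fell about as much. It encodes a zinc-sensing receptor coupled to G proteins. It had 59972 and 61194 normalized counts in Ascl5WT/WT and 8334 and 1640 in Ascl5Mut/WT. The Ascl5WT/WT libraries were nearly equal, and both Ascl5Mut/WT libraries were far lower, replicate 2 the more so (difference -3.98 ± 0.50 SE, limma adjusted p = 0.000249). The call was lost when limma's robust variance was used (adjusted p = 0.219). Gpr39 (chromosome 1, 125676995 to 125873862, plus strand) lies on the same chromosome as Ascl5. It shares 1202 exon bases with Lypd1 on the opposite strand. Lypd1 was listed at 894 and 632 against 756 and 134, far below Gpr39 in Ascl5WT/WT. Because the strand setting is not given, reads in the shared bases may belong to either gene. Of 28 listed zinc, calcium and ion transport genes 7 were tested. Gpr39 was the only call, and the median of the 7 was -0.14, or 0.11 without Ascl5WT/WT replicate 2.

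Igfbp5, which binds insulin-like growth factors in the matrix and marks dental follicle, rose with little spread in Ascl5Mut/WT. Igfbp5 (chromosome 1, 72857932 to 72874884) had 7765 and 11322 in Ascl5WT/WT and 35399 and 35736 in Ascl5Mut/WT. Both Ascl5Mut/WT libraries were more than 3 times as high as either Ascl5WT/WT library (difference 1.91 ± 0.35 SE, limma adjusted p = 0.0068). Of 18 genes of the insulin-like growth factor system, 7 were tested, 6 stood above 0 and 4 did not overlap, all higher, as did 21.1% of all genes tested. The median was 0.90, and it ranged from 0.41 to 1.60 when each library was left out in turn, being lowest without Ascl5Mut/WT replicate 1 (0.41) and Ascl5WT/WT replicate 1 (0.44). Igf1, a ligand, had 113 and 663 against 1623 and 1782, and Igf2, the fetal ligand, had 391 and 1103 against 1561 and 1522. Igf2r, the receptor that clears Igf2, had 4440 and 5597 against 12432 and 6682. These members were each higher in both Ascl5Mut/WT libraries, and none was called (limma adjusted p = 0.59 to 0.744). With the called Igfbp5 they are the 4 that did not overlap. Igf1 and Igf2 passed the minimum mean only through their levels in Ascl5Mut/WT, so they were bound to have the higher mean there.

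Dental follicle genes as a group moved neither way. Of 23, 9 were tested, with 5 above 0, 4 below and a median of 0.18 that was -0.24 without Ascl5Mut/WT replicate 1. Postn, periostin, had 2443 and 2102 against 3954 and 6584 (difference 1.13, limma adjusted p = 0.518). Ptn, the heparin-binding growth factor pleiotrophin, had 4127 and 3298 against 1254 and 943 (-1.66, limma adjusted p = 0.311). Igfbp3, a second binding protein, had 5183 and 8321 against 3902 and 6277 and overlapped between genotypes. So among follicle genes Igfbp5 alone was called, while Postn and Ptn separated the genotypes in opposite directions.

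Among 26 genes of fibrillar collagen and matrix, 17 were tested and none was called. Both Ascl5Mut/WT libraries were higher for 7 of them and lower for 1, against 21.1% and 19.5% of all genes tested, and the median was 0.81. Without Ascl5WT/WT replicate 1 the median was 0.29. Col3a1, the main chain of type III collagen, had 2422 and 2719 against 5430 and 4866 (difference 0.97, limma adjusted p = 0.587). The member that was lower is Vcan, the large proteoglycan versican of loose mesenchyme, with 21144 and 19177 against 8293 and 4573. Its difference of -1.69 just missed the threshold (limma adjusted p = 0.0624).

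Perm1 and Mas1 rose, both with non-overlapping libraries. Perm1 is known as a regulator of muscle metabolism that acts with PGC-1 and ERR factors. Perm1 (chromosome 4, 156215868 to 156221307) had 4555 and 3966 in Ascl5WT/WT and 15867 and 25343 in Ascl5Mut/WT (difference 2.21 ± 0.40 SE, limma adjusted p = 0.0068). The part of the muscle content given above in these values was not tested. Mas1 encodes a receptor of the renin-angiotensin system. It had 2789 and 4015 against 16224 and 16292 (difference 2.24 ± 0.41 SE, limma adjusted p = 0.0072). The Ascl5Mut/WT libraries were almost equal for Mas1, and both stood about 4 to 6 times above the Ascl5WT/WT libraries. Mas1 (chromosome 17, 12841079 to 12868143, minus strand) has 2290 exon bases inside the body of the imprinted antisense RNA Airn. Airn was listed at 112 and 0 against 125 and 0.

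Genes 5031410I06Rik and Gm10389 rose and have no settled function. 5031410I06Rik (chromosome 5, 26098668 to 26105362) lies in a cluster of near-identical genes that includes Speer4a, of a family known from spermatogenic cells. It had 225 and 0 in Ascl5WT/WT and 10806 and 6169 in Ascl5Mut/WT (difference 5.35 ± 0.85 SE, limma adjusted p = 0.00227). Its neighbour Gm10220, 96.5% identical over 2998 aligned transcript bases, had 0 and 0 against 3710 and 1084. Gm10471, 95.5% identical, had 0 and 1407 against 3155 and 936, and Speer4a, 96.4% identical, had 0 and 631 against 2381 and 0. Only 5031410I06Rik and Gm10220 were higher in both Ascl5Mut/WT libraries. Copies this alike can share reads, so how the level divides among them is uncertain. Gm10389 (chromosome 15, 10600293 to 10611651) is annotated as an antisense RNA of Rai14 and shares 89 exon bases with it. Of its exon bases, 4332 lie inside the body of Rai14. Gm10389 had 2797 and 2025 against 10826 and 17555 (difference 2.48 ± 0.45 SE, limma adjusted p = 0.0068). Rai14, an actin-binding protein, had 877 and 885 against 2794 and 678. The level listed for Gm10389 thus separated the genotypes and that listed for Rai14 did not. The strand setting is not given, so reads in the bases inside Rai14 may belong to either gene.

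Tdrd1, Afap1l2 and Wdr76 fell. Tdrd1, a Tudor domain protein of the piRNA pathway in germ cells, had 21748 and 16708 in Ascl5WT/WT and 4298 and 4720 in Ascl5Mut/WT (difference -2.05 ± 0.39 SE, limma adjusted p = 0.00922). Afap1l2, an adaptor that links kinases to actin filaments, had 16137 and 20190 against 5035 and 4766 (-1.86 ± 0.39 SE, limma adjusted p = 0.024). Wdr76, a WD repeat protein linked to DNA damage and protein turnover, had 7040 and 8000 against 1638 and 1069 (-2.40 ± 0.51 SE, limma adjusted p = 0.0297). All 3 were lower in both Ascl5Mut/WT libraries, with little spread inside each genotype. Their calls also depended on single Ascl5WT/WT libraries. Without Ascl5WT/WT replicate 1 the adjusted p was 0.074 for Tdrd1 and 0.159 for Wdr76, and without replicate 2 it was 0.0674 for Afap1l2 and 0.116 for Wdr76. Tdrd1 (56826209 to 56870012) and Afap1l2 (56912361 to 57008228) are near neighbours on chromosome 19, and Wdr76 lies on chromosome 2 (121506723 to 121544860). None of the 3 shares exons with an annotated gene on the opposite strand.

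The next 17 genes by unadjusted p did not pass (limma adjusted p = 0.0536 to 0.17), 14 of them higher and 3 lower in Ascl5Mut/WT. The lower ones were Vcan, Aldh1b1 and Hsp90ab1. Aldh1b1, a mitochondrial aldehyde dehydrogenase, had 4945 and 3482 against 126 and 281, that is 1 and about 2 reads in Ascl5Mut/WT (difference -3.76, limma adjusted p = 0.0697). Hsp90ab1, the constitutive cytosolic HSP90, had 47423 and 32370 against 18521 and 15155 (-1.22, limma adjusted p = 0.141). Among the higher ones, Gemin4, a component of the SMN complex, had 222 and 624 against 2539 and 9921 (3.36, limma adjusted p = 0.0536). Gemin4 shares 2875 exon bases with Fam57a on the opposite strand, which had 1393 in Ascl5Mut/WT replicate 1 and 0 in the other libraries. Adamtsl4, a microfibril-associated protein, had 1198 and 1338 against 5682 and 6856 (2.20, limma adjusted p = 0.0673). Cxcr6, a chemokine receptor, had 1016 and 1394 against 5027 and 4909 and has exons inside the body of Fyco1. The remaining higher genes were 4930545L23Rik, 1700109K24Rik, E130310I04Rik and Gm3693, all annotated as antisense RNAs, and Ssbp2, H2-T24, Fbxl14, Fchsd2, Wwp1, Copg2 and Evi2a. Each of these remaining genes has exons inside the body of a gene on the opposite strand. Of the 30 leading genes by p, 18 had such exons, against 59.2% of tested genes found in the annotation.

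Overlap with the opposite strand was common among genes that could be tested. Of tested genes found in the annotation, 1191 (51.1%) shared exon bases with an annotated gene of the opposite strand, against 24.2% of all annotated genes in the table. Of the 13 called genes, 3 did (Dlx1, Gpr39 and Gm10389). Genes with such an overlap held 55.3% to 58.5% of the total of each library. Among the sex-linked genes tested, the antisense RNA Tsix had a higher mean than Xist. Whether reads were counted on the opposite strand was not tested. The highest feature in every library, Gm11532, lies opposite Sp6, a transcription factor of the dental epithelium, and shares 3329 exon bases with it. Gm11532 had 885114 and 405796 in Ascl5WT/WT against 356431 and 417754 in Ascl5Mut/WT, so only Ascl5WT/WT replicate 1 stood apart (difference -0.64, limma adjusted p = 0.518). Sp6 had 1518 and 0 against 506 and 558. Copg2, a coat protein gene, had 53645 and 70259 against 133414 and 110745 and shares 912 exon bases with the imprinted gene Mest (0.98, limma adjusted p = 0.168). Mest had 6907 and 6256 against 6979 and 5823. Copg2 was higher in both Ascl5Mut/WT libraries, and Mest overlapped between genotypes.

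Copg2 and Mest belong to a list of 23 imprinted genes, many of which control fetal growth. Of these, 13 were tested and none was called, with 12 above 0 and a median of 0.86 that was 0.44 without Ascl5WT/WT replicate 1 and 0.51 without Ascl5Mut/WT replicate 1. The Ascl5Mut/WT libraries were both higher for 7 and both lower for 0, against 21.1% and 19.5% of all genes tested, and 9 of the 13 share exons with an opposite gene. Rtl1, a retrotransposon-derived gene of the Dlk1 domain, had 21063 and 51197 against 84483 and 58275 (difference 1.09, limma adjusted p = 0.269). Kcnq1ot1, the RNA that silences genes of its own domain, had 2426 and 4862 against 14584 and 8274 (1.64, limma adjusted p = 0.178). H19 had 6592 and 13736 against 11115 and 12530 and overlapped. For Rtl1 and Kcnq1ot1 Ascl5WT/WT replicate 1 was the lowest library and Ascl5Mut/WT replicate 1 the highest. The muscle sum, Col1a1 and Col1a2 had the same lowest and highest library. In the muscle sum and Col1a2 the genotypes overlapped, and in Rtl1 and Kcnq1ot1 they did not.

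Signalling genes of tooth shape were low, and none was called. Shh, a secreted hedgehog ligand of the tooth epithelium, had 2162 and 1380 in Ascl5WT/WT against 1136 and 1533 in Ascl5Mut/WT, with overlap (limma adjusted p = 0.883). Sostdc1, an inhibitor of Wnt and BMP signals around the enamel knot, had 1450 and 1768 against 251 and 541. Sostdc1 was lower in both Ascl5Mut/WT libraries, which held about 2 and 4 reads of it (difference -1.80, limma adjusted p = 0.653). In the Wnt pathway 7 of 42 genes were tested, with 2 above 0, 5 below and a median of -0.23. Leaving out Ascl5WT/WT replicate 1 turned that median to 0.34, and leaving out Ascl5WT/WT replicate 2 moved it to -0.79. In the FGF pathway 4 of 24 were tested with a median of -0.11, in the BMP and TGF-beta pathway 3 of 37 with a median of 0.23, and in the Notch pathway 4 of 26 with a median of 0.74. Numb, the Notch inhibitor, had 25420 and 15821 against 22638 and 43082 (0.64, limma adjusted p = 0.594). Most members of these pathways were therefore under the level at which a single gene could be compared.

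Among groups of genes that most cells use, Wdr76 was the only call. Of 40 cell cycle and DNA replication genes 8 were tested and the median was -0.57, or -0.27 without Ascl5WT/WT replicate 1, -0.30 without Ascl5WT/WT replicate 2 and -0.31 without Ascl5Mut/WT replicate 2. Ccnd1, cyclin D1, had 10445 and 7322 against 5188 and 6707 (difference -0.56, limma adjusted p = 0.695). Of 24 glycolysis and hypoxia genes 8 were tested, with 2 above 0, 6 below, a median of -0.52 and no call, and the median was -0.15 without Ascl5Mut/WT replicate 1. Of 24 heat shock and chaperone genes 14 were tested, with 6 above 0, 8 below, a median of -0.11 and no call. Hsp90aa1, the inducible HSP90, had 5479 and 5887 against 4150 and 1858, and Dnaja1, an HSP40 partner of HSP70, had 8165 and 7605 against 5071 and 4175. Both were lower in each Ascl5Mut/WT library, as was Hsp90ab1. Of the 14, both Ascl5Mut/WT libraries were lower for 4 and higher for 2, against 19.5% and 21.1% of all genes tested. Of 79 cytosolic ribosomal protein genes 43 were tested, with 15 above 0, 28 below, a median of -0.31 and no call. Both Ascl5Mut/WT libraries were lower for 13 of the 43 and higher for 4, against 19.5% and 21.1% of all genes tested. Rps3a1, the highest of them, had 126047 and 140076 against 116392 and 92407 (-0.36, limma adjusted p = 0.693). The ribosomal median was 0.00 without Ascl5WT/WT replicate 2 and -0.03 without Ascl5Mut/WT replicate 2, and the heat shock median was 0.15 without Ascl5WT/WT replicate 2 and 0.08 without Ascl5Mut/WT replicate 2.

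The clock gene Clock stood higher and was not called, with 16004 and 12427 in Ascl5WT/WT against 20381 and 35465 in Ascl5Mut/WT (difference 0.93, limma adjusted p = 0.397). Genes of endothelium and myeloid cells stayed under the minimum mean. Their sums were 1457 and 1954 against 1424 and 1681 for endothelium, and 2023 and 1250 against 3421 and 2722 for myeloid cells. The endothelial sums overlapped between genotypes and the myeloid sums did not.

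Some genes under the minimum mean were listed at 0 in both libraries of a genotype. At least 500 normalized counts in both Ascl5Mut/WT libraries and 0 in both Ascl5WT/WT libraries were found for 48 such genes, and the reverse for 26. Spink5, a protease inhibitor of stratified epithelium, had 1277 and 2576 in Ascl5Mut/WT, at least 5.47-fold above a floor of 3 reads. Klf6, a zinc finger transcription factor, had 2170 and 1220, and Clec9a, a dendritic cell receptor, had 1283 and 1484. In the reverse direction, Pinx1, a telomerase inhibitor, had 1779 and 2109 in Ascl5WT/WT and 0 in Ascl5Mut/WT, at least 4.91-fold lower. Ncapd2, a condensin subunit, had 1894 and 867 in Ascl5WT/WT and 0 in Ascl5Mut/WT. These genes were chosen by their values and have no test.

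Molars with the mutation in both alleles were measured in a second table that shares the Ascl5WT/WT libraries and was normalized separately, so its values are given next to those of Ascl5Mut/WT and no test between the mutant genotypes was made. Krt4 had 5922 and 38281 in Ascl5Mut/Mut beside 8146 and 15031 in Ascl5Mut/WT, and Krt13 had 5344 and 38097 beside 3636 and 17812. Igfbp5 had 38667 and 43801 beside 35399 and 35736. Dlx1 had 2348 and 556 beside 4658 and 2064, and Gpr39 had 2100 and 2599 beside 8334 and 1640. Tdrd1 had 0 and 1345 beside 4298 and 4720, Afap1l2 had 558 and 2381 beside 5035 and 4766, and Wdr76 had 1257 and 797 beside 1638 and 1069. Since the 13 genes were chosen on a contrast with the same Ascl5WT/WT libraries, their direction in this table is no independent evidence. Tdrd1 and Afap1l2 were lower in each Ascl5Mut/Mut library than in either Ascl5Mut/WT library. Dspp had 0 and 0 in Ascl5Mut/Mut beside 14045 and 8122 in Ascl5Mut/WT. Gm11532, not called here, had 2113 and 29497 in Ascl5Mut/Mut beside 356431 and 417754.

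**Figure D4:**
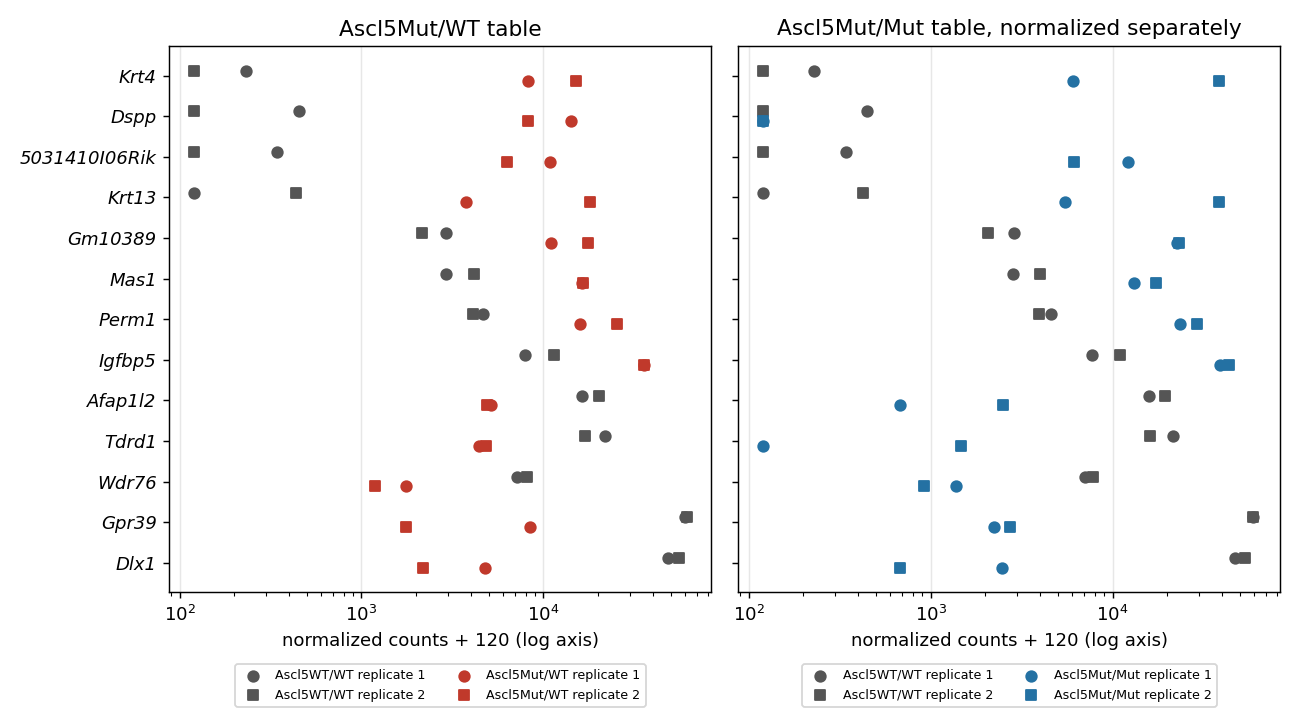
Normalized counts + 120 (log axis) of the 13 genes called in Ascl5Mut/WT, in the table with Ascl5Mut/WT (left, red) and in the separately normalized table with Ascl5Mut/Mut (right, blue), with the shared Ascl5WT/WT libraries in grey. Dspp is high in both Ascl5Mut/WT libraries and at 0 in both Ascl5Mut/Mut libraries. The genes were chosen on the left table, and the Ascl5WT/WT libraries are the same in both.

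How many genes were called depended on the setting. The range over the settings tried was 0 to 37 genes.

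**Figure D5:**
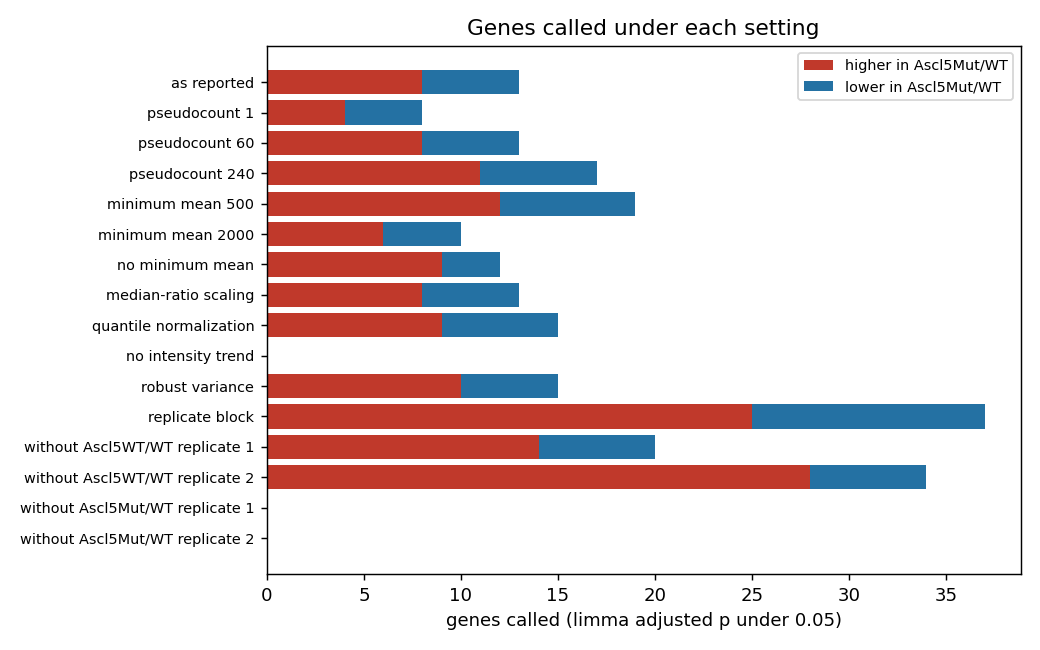
Number of genes called by limma (adjusted p under 0.05) under each setting, split into genes higher (red) and lower (blue) in Ascl5Mut/WT. The reported setting gives 13 genes, and the count is 0 without either Ascl5Mut/WT library and without the intensity trend.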

How the data were processed

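Total RNA of maxillary first molars was made into libraries by a strand-preserving SMARTer kit, per the labels' protocols. The authors deposited normalized counts per gene (a signal on a linear scale), made with the mm10 genome and DESeq2 per the submitters' processing notes, with no version. No aligner, annotation or strand setting is given in the sources used here. Low values clustered at steps worth 1 read that were not exact, so whole reads were not recovered and no count model was run.

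Genes with a mean of at least 1000 over the 4 libraries were tested with limma 3.58.1 in R 4.3.3 (lmFit, eBayes, trend on) on log2(normalized count + 120), with Benjamini-Hochberg adjustment over all 2370. The fit was also run on simulated counts drawn with a fixed dispersion. The simulated libraries did not differ in tissue content or sex, so that run sets no error rate for the calls. Positions and opposite-strand overlaps come from GENCODE mouse release 21 (GRCm38), which held 24479 of the 24972 names, and 11 damaged names were not matched. Transcripts were aligned with blastn 2.17.0. Named are all called genes, the 30 leading genes by p, and in 45 gene lists the called members, some of the tested members with the highest means and defining markers. They also include opposite-strand partners and genes at 0 in 1 genotype. The members and lists were chosen with earlier results of these data known. Depths and floors cover counting error only.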

Additional observations from a re-analysis of the deposited data

How the results depend on the processing

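The 13 calls were all kept with pseudocounts of 60 (13 genes) and 240 (17), a minimum mean of 500 (19), median-ratio scaling (13) and quantile normalization (15). A pseudocount of 1 left 8 genes and a minimum mean of 2000 left 10, while no minimum mean gave 12, of which 11 were among the 13 (9 of the 12 higher and 3 lower, 75.0% higher against 61.5% as reported). A robust variance gave 15, of which 12 were among the 13 (not Gpr39). Lost at a minimum mean of 2000 were 5031410I06Rik, Krt13 and Wdr76 (adjusted p 0.0682 to 0.146), and without a minimum Afap1l2 and Wdr76 (0.0816 and 0.164). Without the intensity trend 0 genes were called (smallest adjusted p 0.166). Leaving out 1 library gave 0 to 34 genes: 20 without Ascl5WT/WT replicate 1 and 34 without replicate 2, 11 of the 13 in each, and 0 without Ascl5Mut/WT replicate 1 or 2. A lone library is then assumed to vary like the other genotype. With the replicate number as a replicate block, 37 genes were called, among them all 13 and, among others named as not called, Gemin4, Vcan, Aldh1b1, Adamtsl4, Ibsp, Kcnq1ot1 and Myh8. Replicate 1 of each genotype held reads of the Y-linked Eif2s3y and replicate 2 none, so this block is also one of sex. The labels do not say that the numbers pair samples, and deviations of same-numbered libraries correlated at 0.023 over 2370 genes. The sign reversed for 1 named gene, not called: Krt14 ranged from -0.23 without Ascl5Mut/WT replicate 2 to 1.24 without replicate 1. The cause was not tested. Scaling moved the median of all genes by at most 0.06. Genes under about 10 reads could not be compared at this depth.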
